A study of Mus musculus with 6 samples.

Results

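The genes of the GPVI and CLEC-2 pathway were followed in mouse platelet RNA. The 10 members were taken by their symbols from a deposited table of 14975 genes. They are the collagen receptor gene Gp6 and its signaling chain Fcer1g, the podoplanin receptor gene Clec1b, the kinase genes Syk, Lyn, Fyn and Btk, the adaptor genes Lat and Lcp2, and the phospholipase gene Plcg2. All 10 had a row in the table, and all 10 passed the filter on low values. No member differed between pre-AML and control platelets past the threshold of the test, and Gp6 was the receptor gene with the lowest pre-AML level relative to control.

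GPVI binds collagen that is exposed in an injured vessel wall, and it signals through the Fc receptor γ-chain, whose tail holds an immunoreceptor tyrosine-based activation motif (ITAM). CLEC-2 binds podoplanin, a protein of lymphatic endothelium and stromal cells, and holds a hemITAM, a single copy of the same kind of tyrosine motif, in its own tail. Src family kinases phosphorylate the ITAM tyrosines, Syk docks to them, and Syk then drives a complex on the adaptors LAT and SLP76 in which Btk and phospholipase Cγ2 raise calcium and activate the platelet.

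The study compared platelets of C57BL/6 background from mice transplanted with hematopoietic cells that carried the MLL-AF9 oncogene and from mice transplanted with normal bone marrow. The paper describes the donor cells as hematopoietic stem and progenitor cells transformed with a retrovirus that encodes MLL-AF9, the recipients as irradiated female mice in both groups, and the stage a week after transplantation as pre-AML. The labels call the groups AML and WT and give no week. They mention 2 replicates per group and pools of 3 to 4 mice, whereas 3 libraries per group were analysed. The paper speaks of independent mice instead. The groups are named pre-AML and control here. Because the sources differ on which mice stand behind each library, p-values measure the spread between these libraries only. Blood cells that carry CD45 or Ter119 were depleted, and the polyA RNA of the platelets was amplified with SMART-Seq2.

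The values are FPKM, reads scaled to gene length and library size. The recovered reads on the listed genes were between 11935836 and 17778628 per library. The 10 platelet marker genes, led by Pf4 and Ppbp, had a summed level of 89001 to 112920 FPKM in control and 61034 to 91560 in pre-AML libraries. Pre-AML 3 stood apart on the first principal component, which held 70.2% of the variance, at 41.9 against -12.7 to -2.12 for the other 5 libraries. In this library the size by which reads had been divided was 1.31 times its recovered reads, against 0.983 to 1.01 times in the others, so a gene with the same share of reads has a lower FPKM there. It also held the most RNA of macrophage genes. The 11 monocyte and macrophage markers other than Lyz2 summed to 304 FPKM, against 5.51 and 7.83 in the other pre-AML libraries and 0.393 to 0.834 in control. Results on the members are therefore given with and without pre-AML 3.

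The coding bases of the motifs by which the receptors signal are shown first. Capitals mark the tyrosine and leucine codons of the motif, read 5′ to 3′ on the coding strand in GRCm38.
Fcer1g ITAM: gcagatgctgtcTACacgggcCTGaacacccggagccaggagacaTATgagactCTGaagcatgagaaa
Clec1b hemITAM: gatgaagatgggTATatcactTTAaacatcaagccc
The Fcer1g stretch lies on the minus strand at chr1:171229877-171230084, in exons 4 and 5 of 5, and covers codons 61 to 83 of 86, with the intron between them left out. The Clec1b stretch lies on the plus strand at chr6:129397621-129397656, in exon 1 of 6, and covers codons 3 to 14 of 229. A full ITAM was searched as a tyrosine codon followed 3 codons later by a leucine or isoleucine codon, and the same again after 6 to 12 residues. It matched Fcer1g and none of the other 9 members, while 6.45% of 21767 mouse coding genes had a match. Gp6, with 313 codons, had no match.

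The promoters of the receptor genes are shown because the levels of these 3 genes carry the main results. Each is the 250 bases before the start annotated by RefSeq in GRCm38.p6, on the strand of the gene, with capitals for matches to motifs of GATA and ETS factors, which are active in megakaryocytes.
Gp6, chr7:4397745-4397994, minus strand: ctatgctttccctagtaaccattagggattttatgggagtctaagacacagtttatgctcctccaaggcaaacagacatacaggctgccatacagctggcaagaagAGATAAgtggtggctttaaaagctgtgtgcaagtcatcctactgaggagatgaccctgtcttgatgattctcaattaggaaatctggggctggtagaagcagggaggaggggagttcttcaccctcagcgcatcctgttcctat
Fcer1g, chr1:171234350-171234599, minus strand: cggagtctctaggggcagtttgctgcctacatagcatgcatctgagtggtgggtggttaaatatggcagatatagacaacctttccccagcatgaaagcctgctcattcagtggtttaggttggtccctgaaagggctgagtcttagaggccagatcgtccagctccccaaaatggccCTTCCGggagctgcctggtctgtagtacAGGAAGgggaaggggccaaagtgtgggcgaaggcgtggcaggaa
Clec1b, chr6:129397047-129397296, plus strand: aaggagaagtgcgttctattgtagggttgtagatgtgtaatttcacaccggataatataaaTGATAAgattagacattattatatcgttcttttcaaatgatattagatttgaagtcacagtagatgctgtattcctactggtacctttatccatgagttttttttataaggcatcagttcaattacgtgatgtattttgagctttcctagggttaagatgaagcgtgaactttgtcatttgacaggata
The GATA motif was searched as AGATAA or as TGATAA, with a final G also allowed, the ETS motif as AGGAAG or CGGAAG and the RUNX motif as TGTGGT, on both strands. Gp6 and Clec1b each held 1 GATA match, and Fcer1g held 2 ETS matches. Of 32851 mouse promoters of this length, 26.5% held a GATA match, 39.2% an ETS match and 14.0% a RUNX match. Among the other members, Lcp2 held 3 GATA and 1 ETS matches, Fyn and Plcg2 held 1 GATA match each, Lat held 1 ETS match and Btk held none. Syk has a pair of annotated starts, one with 1 GATA match and one with none. Lyn was not searched.

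In control platelets the members covered a wide range of levels per length. Fcer1g had the highest level, 2437 ± 230.2 FPKM (mean ± SD, n = 3 libraries, as for all levels below), and ranked 22 of the 14975 genes. Clec1b followed with 967 ± 35.7 FPKM at rank 63. Lyn had 211 ± 14.5 FPKM and Gp6 148 ± 7.97 FPKM, at ranks 206 and 285. The adaptor genes came next, with 37.6 ± 5.68 FPKM for Lat and 24.1 ± 2.88 FPKM for Lcp2. Btk had 15.5 ± 1.41 FPKM and Syk 11.8 ± 0.958 FPKM. Plcg2, with 5.63 ± 1.77 FPKM, and Fyn, with 4.81 ± 0.603 FPKM, had the lowest levels, and they were the only neighbours in this order whose control libraries overlapped. These are levels of RNA per length and not of protein.

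**Figure D1:**
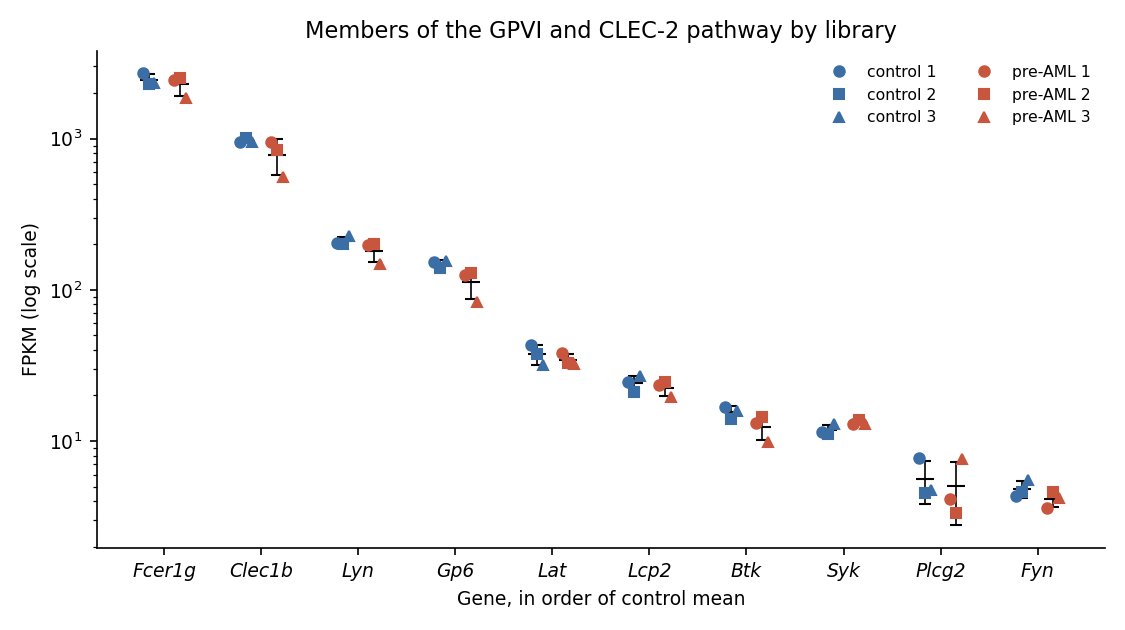
FPKM of the 10 members on a log axis, in order of their control mean, with control libraries in blue and pre-AML libraries in red, 1 marker shape per library number, and bars for the mean ± SD of 3 libraries. Fcer1g and Clec1b lie highest and Plcg2 and Fyn lowest in both groups, and the red triangle of pre-AML 3 is the lowest point for 6 members.

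The order rests in part on the gene length behind FPKM, which was the union of all annotated exons. For Clec1b this union holds 5103 bases, 4.68 times the 1090 bases of its principal transcript, while Gp6 has 5900 bases in both. With the length of the principal transcript, an alternative chosen after the values were seen, Clec1b had the highest level of all members, with 4526 FPKM (4413 to 4718 over control libraries), above 3160.5 FPKM for Fcer1g (2957 to 3503). Lat went from 37.6 to 84.2 FPKM with its place unchanged, where its length is uncertain because its deposited values did not come out as whole reads in 4 libraries, and Syk, at 20.7 FPKM, stood above Btk, at 19.3 FPKM. Which transcripts the platelets hold was not measured, so the order of Fcer1g and Clec1b depends on the length used. The gene span of Clec1b also shares 474 bases on the same strand with that of its neighbour Clec9a. Lcp2 lies wholly within the span of 4930469K13Rik on the opposite strand. Lyn, Fyn, Plcg2 and Btk also overlap genes on the opposite strand, by up to 11432 bases for Lyn and 6886 for Fyn. These spans include introns, and the overlap of exons was not computed. Since the library kit keeps no strand, reads from any exon bases that are shared could not be told apart.

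**Figure D2:**
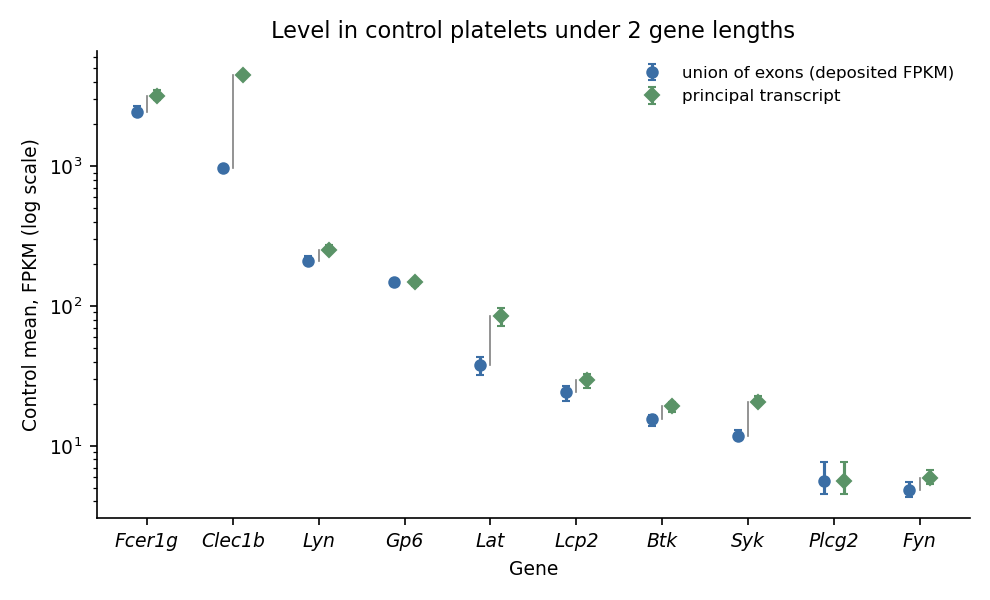
Control mean of each member in FPKM on a log axis, with the union of exons (blue circles) and with the length of the principal transcript (green diamonds). Bars span the lowest to the highest of the 3 control libraries. Clec1b moves from 967 to 4526 FPKM and passes Fcer1g, whereas Gp6 and Plcg2 keep their values.

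For the comparison of the groups, log2(FPKM + 1) was tested with limma-trend, with Benjamini-Hochberg adjusted p-values, in the 4412 genes whose mean over all libraries reached 1 FPKM. Because of the added 1, differences of low genes such as Fyn and Plcg2 are understated. In bulk RNA, fewer platelets that hold a transcript and less of it per platelet cannot be told apart.

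Gp6, the gene of the collagen receptor, lies on the minus strand at chr7:4363965-4397744 of GRCm38. Its level was 152, 139 and 154 FPKM in control 1 to 3 and 126, 129 and 82.9 FPKM in pre-AML 1 to 3. All 3 pre-AML libraries were below all 3 controls, with pre-AML 3 the lowest. The pre-AML mean was 112 ± 25.5 FPKM, for a log2 fold change of -0.43 (standard error 0.19, 95% interval -0.85 to 0.00020, adjusted p = 0.522 from limma-trend). As a share of the recovered reads, which does not use the deposited library sizes, Gp6 had 880.04, 834 and 905 RPM (reads in 1000000) in control and 728, 768 and 642 in pre-AML libraries. These values did not overlap either. The log2 fold change was below 0 in all 14 alternative settings, between -0.54 and -0.20, with adjusted p of 0.316 to 0.746. Without pre-AML 3 it was -0.22.

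Fcer1g, the gene of the γ-chain that carries the GPVI signal into the cell, lies on the minus strand at chr1:171229572-171234365. Control libraries had 2701, 2279.5 and 2329.9 FPKM, and pre-AML libraries had 2450, 2530.5 and 1867 FPKM. The groups overlapped, and pre-AML 3 alone lay under every control. For Fcer1g the log2 fold change was -0.10 (standard error 0.16, 95% interval -0.46 to 0.25, adjusted p = 0.795 from limma-trend). Its sign depended on that library and on the scaling: it was 0.035 without pre-AML 3 and 0.069 with all libraries scaled to the same FPKM sum. Fcer1g had 2020.4 to 2321.5 RPM in control and 2104.5 to 2238.6 in pre-AML libraries. Macrophages and mast cells also use this gene, and the macrophage markers were highest in pre-AML 3, as given above. The 5 mast cell and basophil markers with values, Hdc and Cpa3 the highest, summed to 0.924 to 1.57 FPKM in control and 1.09 to 1.35 in pre-AML libraries. The part of such cells in the level of Fcer1g was not tested.

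Clec1b, the gene of the podoplanin receptor CLEC-2, lies on the plus strand at chr6:129397297-129409335. It had 949.95, 1008 and 943 FPKM in control and 954, 836 and 556 in pre-AML libraries. Pre-AML 1 lay within the controls, and the other pre-AML libraries lay below them. Clec1b differed by -0.34 on the log2 scale (standard error 0.20, 95% interval -0.80 to 0.11, adjusted p = 0.536 from limma-trend). Without pre-AML 3 it was -0.11, and with the trend of each library with GC content and gene length removed it was 0.0100. The shares were 4767, 5215 and 4779 RPM in control and 4783, 4319.5 and 3721 in pre-AML libraries.

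Syk, at chr13:52583173-52648792 on the plus strand, encodes the kinase that docks to the phosphorylated motif of either receptor and was the only member with a log2 fold change above 0. It had 11.4, 11.2 and 12.9 FPKM in control and 12.9, 13.8 and 12.9 in pre-AML libraries. The lowest pre-AML value, 12.91 FPKM, lay just below the highest control value, 12.935 FPKM. Syk differed by 0.15 on the log2 scale (standard error 0.13, 95% interval -0.14 to 0.44, adjusted p = 0.629 from limma-trend), and it was between 0.11 and 0.31 in the 14 alternatives. It was 0.17 without pre-AML 3. Syk is also expressed by B cells and macrophages, whose markers were highest in pre-AML 3, and their part in its level was not tested.

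The genes of the Src family kinases that phosphorylate the motif had log2 fold changes below 0. They lie on the plus strand, Lyn at chr4:3678115-3813122 and Fyn at chr10:39368855-39565381. Lyn had 202.41, 201.91 and 227 FPKM in control and 196, 201.56 and 148 in pre-AML libraries. All pre-AML values were below the controls, though pre-AML 2 and control 2 were 201.56 and 201.91 FPKM, and the groups overlapped as shares of the recovered reads. The log2 fold change of Lyn was -0.22 (standard error 0.16, 95% interval -0.58 to 0.14, adjusted p = 0.587 from limma-trend) and -0.079 without pre-AML 3. Fyn had 4.33, 4.61 and 5.49 FPKM in control and 3.60, 4.60 and 4.22 in pre-AML libraries, which overlapped. Its log2 fold change was -0.18 (standard error 0.15, 95% interval -0.51 to 0.16, adjusted p = 0.622 from limma-trend) and -0.19 without pre-AML 3. It rested on 209 to 430 recovered reads per library, against 9677 to 14027 for Lyn.

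Lat and Lcp2 encode the adaptors on which the signaling complex forms, and their groups overlapped. Lat lies at chr7:126363824-126369570 on the minus strand and Lcp2 at chr11:34046920-34092295 on the plus strand. Lat had 43.3, 37.5 and 31.9 FPKM in control and 38.2, 32.8 and 32.2 in pre-AML libraries, a log2 fold change of -0.12 (standard error 0.16, 95% interval -0.47 to 0.24, adjusted p = 0.761 from limma-trend). Lcp2 had 24.5, 21.02 and 26.7 FPKM in control and 23.6, 24.6 and 19.5 in pre-AML libraries, a log2 fold change of -0.092 (standard error 0.15, 95% interval -0.44 to 0.26, adjusted p = 0.814 from limma-trend). Both turned above 0 with the same FPKM sum, to 0.050 for Lat and 0.073 for Lcp2. Without pre-AML 3, Lat was at -0.074 and Lcp2 at 0.0062.

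Btk and Plcg2 encode the kinase and the phospholipase at the end of the chain. Btk lies on the minus strand at chrX:134542336-134583570 and Plcg2 on the plus strand at chr8:117498291-117635142. Btk had 16.7, 14.0 and 15.9 FPKM in control and 13.1, 14.4 and 9.84 in pre-AML libraries. Pre-AML 2 alone lay within the controls. The log2 fold change of Btk was -0.31 (standard error 0.17, 95% interval -0.69 to 0.071, adjusted p = 0.526 from limma-trend), and it was below 0 in all 14 alternatives, with -0.16 without pre-AML 3.

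Relative to its mean, Plcg2 had the widest spread of the members within both groups. It had 7.67, 4.50 and 4.71 FPKM in control and 4.16, 3.33 and 7.58 in pre-AML libraries, from 387, 272 and 241 reads and 238, 216 and 760 reads. Control 1 and pre-AML 3 stood high, 1 library in each group. Plcg2 differed by -0.17 on the log2 scale (standard error 0.28, 95% interval -0.80 to 0.47, adjusted p = 0.813 from limma-trend), which was -0.45 without pre-AML 3 and 0.041 without control 1. B cells use Plcg2 as well, and the 9 B cell markers with values summed to 245 FPKM in pre-AML 3 but to 2.01 FPKM in control 1, within the control range of 1.85 to 2.04 FPKM. The part of B cell RNA in the level of pre-AML 3 was not tested.

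Of the 10 members, 0 were past the adjusted threshold, where 0.0227% of all tested genes were (1 of 4412), and 0 had an unadjusted p under 0.05 in limma-trend, against 9.09% of tested genes. Past the adjusted threshold there were also 0 members in all 14 alternatives, limma-voom on the recovered reads included. At an unadjusted p under 0.05 the alternatives gave 0 to 2 members, where 4.56% to 17.1% of the genes tested in them were. Groups did not overlap, with lower pre-AML values, for Gp6 and Lyn, 2 of 10 members against 12.8% of all tested genes. With higher pre-AML values this held for 0 members against 6.14% of tested genes. The log2 fold change was below 0 for 9 members against 58.5% of tested genes, with a median of -0.17 over members and -0.055 over all tested genes. This direction depended on the scaling. With libraries scaled to the same FPKM sum, which moved the median of all genes by 0.14 to 0.084, it was below 0 for 6 members against 37.1% of tested genes. With limma-voom on recovered reads it was below 0 for 6 members against 40.6% of tested genes. Without pre-AML 3 it was below 0 for 7 members against 53.6% of tested genes. Under the median of all tested genes lay 9 members on the deposited values, 7 without pre-AML 3 and 6 to 9 over the 14 alternatives. In FPKM the lowest library was pre-AML 3 for 6 members, but as a share of the recovered reads for Gp6 and Clec1b only. In how many of all tested genes it was the lowest was not counted.

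**Figure D3:**
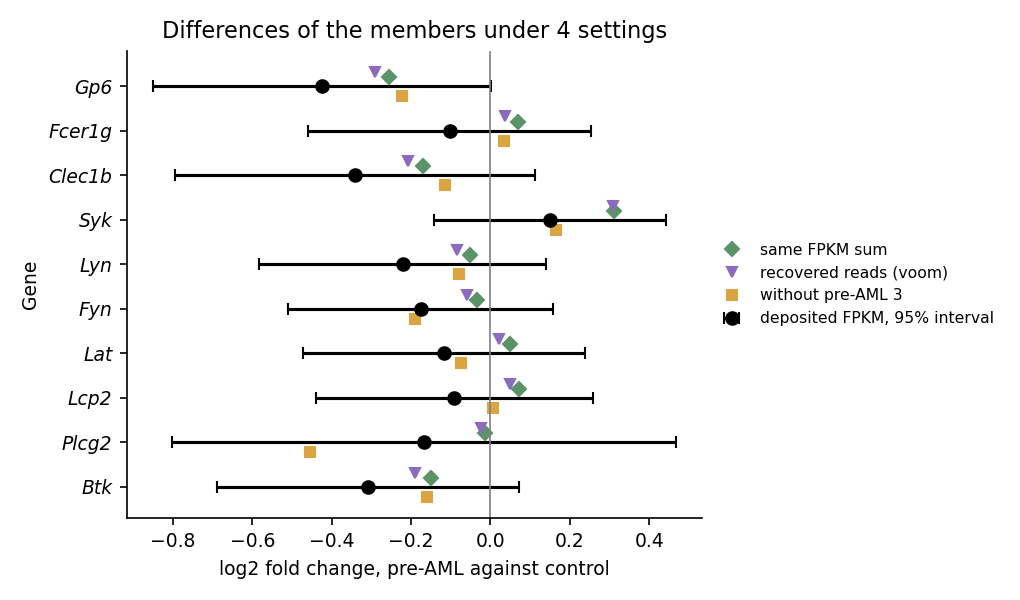
Log2 fold change of each member, pre-AML against control, with black circles and 95% intervals for the deposited FPKM, green diamonds for libraries scaled to the same FPKM sum, purple triangles for limma-voom on recovered reads, and yellow squares without pre-AML 3. Gp6, Clec1b, Lyn, Fyn, Plcg2 and Btk lie below 0 and Syk above 0 in all 4 settings, and every interval includes 0.

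Ratios of pathway genes within a library do not depend on library size, so they were compared between the groups with exact two-sided permutation tests over 5 ratios, for which 0.1 was the smallest p possible with 3 against 3 libraries. Fcer1g exceeded Gp6 17.8-, 16.4- and 15.1-fold in control and 19.5-, 19.7- and 22.5-fold in pre-AML libraries. Every pre-AML library was above every control. The ratio of the γ-chain gene to the receptor gene was 1.25 times higher in pre-AML libraries (log2 difference 0.33, exact p = 0.1, adjusted p = 0.5), and 1.196 times higher without pre-AML 3. With the trend of each library with GC content and gene length removed, an alternative chosen after the values were seen, it was 1.08 times higher (log2 difference 0.11) and the groups still did not overlap. The threshold could not be reached in this design. In how many other pairs of genes the groups do not overlap was not counted. Macrophages also use Fcer1g, and the part of their RNA in the ratio, which was highest in pre-AML 3, was not tested.

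The other 4 ratios overlapped between the groups. Clec1b to Gp6 was 6.11 to 7.23 in control and 6.50 to 7.598 in pre-AML libraries (log2 difference 0.087, exact permutation p = 0.5). Lyn to Fyn, the ratio of the more to the less abundant Src family gene, was 41.4 to 46.7 in control and 34.9 to 54.6 in pre-AML libraries (log2 difference -0.0070, exact permutation p = 0.9). Btk to Plcg2 was 2.18 to 3.38 in control and 1.298 to 4.33 in pre-AML libraries, the widest spread of the 5 on the log2 scale (log2 difference -0.12, exact permutation p = 0.9). Lat to Lcp2 was 1.195 to 1.79 in control and 1.34 to 1.66 in pre-AML libraries (log2 difference -0.025, exact permutation p = 1.0). The adjusted p of these 4 was 1.0.

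**Figure D4:**
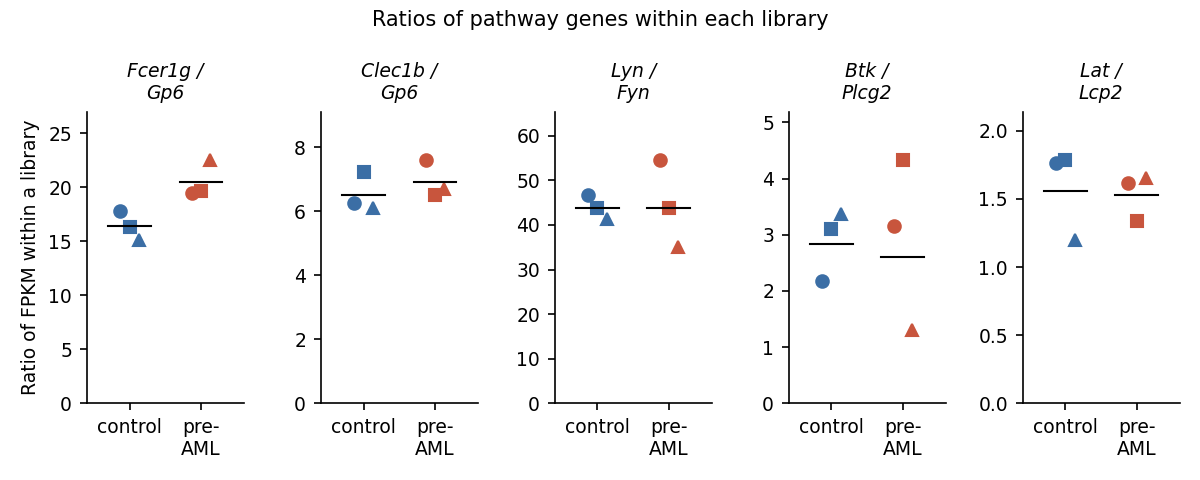
Ratio of FPKM within each library for 5 pairs of members, on axes that start at 0, with blue markers for control, red markers for pre-AML libraries, 1 shape per library number and lines for the geometric means. Fcer1g to Gp6 is the only pair in which the groups do not overlap.

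The wider pathway was followed in 5 lists of 80 other genes, of which 79 had values and 44 were tested. None passed the threshold of limma-trend (0 of 44). An unadjusted p under 0.05 in limma-trend was reached by 1 higher gene, Tyrobp, and 1 lower gene, Ceacam2, where 9.09% of all tested genes reached it. Groups did not overlap for 3 of the 44 with lower pre-AML values, Ceacam2, Skap2 and Clec9a, against 12.8% of tested genes. With higher values this held for 1, Tyrobp, against 6.14%. Among the 44, Tyrobp, Cd79a, Cd79b, Fcgr3, Ptpn6 and Dok3 passed the filter through the pre-AML libraries alone, so no median is given over all 44.

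Of 10 Src family genes and their regulators, 4 passed the filter, 3 above and 1 below 0. Csk, the kinase that holds Src family members inactive, had 9.07 FPKM in control and 9.21 in pre-AML platelets (log2 fold change 0.026). Ptprj, the phosphatase that activates them, had 18.2 and 15.9 FPKM (-0.19), and Ptpn1, another phosphatase, had 57.5 and 65.2 FPKM (0.19). Src itself had 3.53 FPKM in control and 3.61 in pre-AML platelets (0.026), close to Fyn. The lymphocyte kinase gene Blk was at 0 in all control libraries and at 0, 0.442 and 3.18 FPKM in pre-AML libraries. Lck, of T and NK cells, had 0.0582 FPKM or less in control and 0.924, 0.181 and 0.951 in pre-AML libraries.

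Of 18 inhibitory receptors, phosphatases and ubiquitin ligases, 13 were tested, 5 above and 8 below 0, with Ptpn6 and Dok3 among the 5. Mpig6b, whose product G6b-B restrains GPVI and CLEC-2 signaling, had 743, 671 and 742 FPKM in control and 754, 795 and 623 in pre-AML libraries, which overlapped (log2 fold change 0.0043, adjusted p = 0.994 from limma-trend). Treml1 and Pecam1, receptors whose tails also hold inhibitory tyrosine motifs, had 889 and 186 FPKM in control and 850.1 and 179 in pre-AML platelets. Ceacam2, an inhibitory receptor at low level, had 2.05, 2.27 and 2.31 FPKM in control and 1.17, 1.80 and 1.02 in pre-AML libraries. All pre-AML values were lower, by limma-trend with -0.47 on the log2 scale (standard error 0.18, adjusted p = 0.522). Ptpn6, a phosphatase abundant in leukocytes, was under 0.7 FPKM in 5 libraries and 9.93 FPKM in pre-AML 3.

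Of 17 further adaptors and exchange factors, 10 were tested, 4 above and 6 below 0. Their median was -0.16 on the deposited values but -0.0011 with the same FPKM sum, -0.024 with limma-voom and 0.037 with no filter. Skap2 had 86.2 FPKM in control and 69.1 in pre-AML platelets (log2 fold change -0.33), Dapp1 had 92.4 and 74.3 FPKM (-0.32), and Nck2 had 86.3 and 88.8 FPKM (0.039), each with an adjusted p of 0.522 or more in limma-trend. Of 22 lipid, calcium and Ras-family effectors, 12 were tested, 3 above and 9 below 0. Rac1, a GTPase of the cytoskeleton, had 413 FPKM in control and 369.8 in pre-AML platelets (-0.17). Rasgrp2, the exchange factor through which calcium activates Rap1, had 115 and 124 FPKM (0.098). The protein kinase C genes Prkcq and Prkcd had log2 fold changes of -0.14 and -0.13. Plcg1, the close relative of Plcg2, was below the filter, at 0.169 FPKM in control and 0.303 in pre-AML platelets.

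The last list covered other ITAM and hemITAM proteins. It also held Fcgr1, Fcgr3, Fcgr4 and Pirb, whose products carry no ITAM or hemITAM of their own. Of its 13 genes, 12 had values and 5 were tested. In control platelets their sum was 4.59 to 5.79 FPKM, below the level of Fcer1g, which was compared with this list alone. Tyrobp, the ITAM adaptor DAP12 of myeloid and NK cells, had 0.128, 0.533 and 0.126 FPKM in control and 4.85, 4.37 and 153 in pre-AML libraries. All pre-AML values were higher, by limma-trend with 3.76 on the log2 scale (standard error 1.11, adjusted p = 0.522). Without pre-AML 3 it was 2.17 (adjusted p = 0.00544 from limma-trend). Because Tyrobp entered the test through the pre-AML libraries alone, this p-value is not used as support for a difference. The B cell receptor genes Cd79a and Cd79b were under 2 FPKM in 5 libraries and had 23.6 and 23.2 FPKM in pre-AML 3. Clec9a, the neighbour of Clec1b, had 3.54 FPKM in control and 2.502 in pre-AML platelets (log2 fold change -0.37), and which of its reads belong to Clec1b was not tested.

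**Figure D5:**
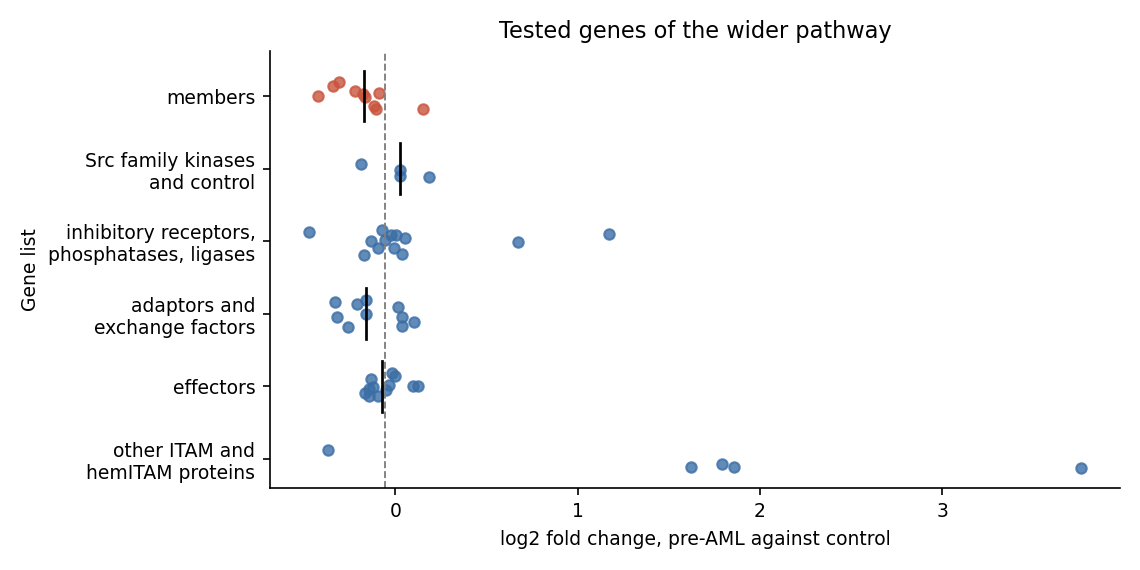
Log2 fold change, pre-AML against control, of the tested genes in 6 lists, 1 point per gene, with solid lines for the medians of the lists without genes that passed the filter through pre-AML libraries alone, and a dashed line at the median of all tested genes, -0.055. The members and the platelet partners lie close to 0, and the points above 1 are Ptpn6, Tyrobp, Cd79a, Cd79b and Fcgr3. Fcgr3 stands on the last list, though its product has no ITAM of its own.

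Markers of other blood cells moved as follows beside these values. Lyz2, with 2384 to 2615 FPKM in control and 2334 to 3093 in pre-AML libraries, made up most of the monocyte and macrophage sum. All 12 markers of this list were above every control in pre-AML 3, a share that was not counted over all genes. In all 3 pre-AML libraries 5 of 12 were so, where 6.14% of tested genes were. Some of these lay near the floor: in pre-AML 1, Csf1r had 0.0651 and Adgre1 0.116 FPKM, where 3 reads on a 2 kb gene are 0.113 FPKM. B cell markers summed to 1.85 to 2.04 FPKM in control and to 1.21, 21.5 and 245 in pre-AML libraries, with Cd74 at 168 and Cd79b at 23.2 FPKM in pre-AML 3. T and NK cell markers summed to 19.1 to 28.9 FPKM in control and 34.3 to 43.9 in pre-AML libraries. Nkg7 made up most of these sums but overlapped between the groups, with 18.9 to 28.2 FPKM in control and 22.6 to 27.9 in pre-AML libraries. Gzma, the 1 gene past the threshold in the whole table, had 0 to 0.353 FPKM in control and 4.61 to 8.90 in pre-AML libraries. It too passed the filter through the pre-AML libraries alone. Neutrophil markers summed to 2.08 to 2.98 FPKM in control and 1.04 to 3.55 in pre-AML libraries, S100a8 and S100a9 among them. Erythroid markers, led by Hba-a1 and Hbb-bt, summed to 2350.2 to 2652 FPKM and 2377 to 2991 FPKM. Ptprc, the gene of CD45, was under 0.2 FPKM in 5 libraries and 1.57 FPKM in pre-AML 3. Pre-AML 3, in which the sums of macrophage and B cell markers were highest but that of neutrophil markers was not, was also the lowest library in FPKM for Gp6, Clec1b and 4 other members. As a share of the recovered reads it was the lowest for Gp6 and Clec1b, but not for Fcer1g, Lyn, Lcp2 and Btk. The part of leukocyte RNA and of the library size in those values was not tested.

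The genes whose levels over the 6 libraries lay nearest to those of the receptors were sought among 4411 tested genes by the Euclidean distance of centred log2 values, as a description that says nothing of shared control. For Gp6 they were Mtpn, Nqo2 and Rab8b, at distances of 0.115 to 0.141 beside a median of 0.865 over all genes. Mtpn, the gene of myotrophin, had 85.1, 79.5 and 81.3 FPKM in control and 69.4, 68.0 and 44.1 in pre-AML libraries. For Clec1b they were Esd, Tax1bp1 and Ypel5, at 0.0866 to 0.101 (median 0.816), and Esd, the gene of esterase D, had 845, 888 and 825 FPKM in control and 808, 722 and 509 in pre-AML libraries. For Fcer1g, Tm2d2 and Glb1l were among the nearest, at 0.107 and 0.113 (median 0.597).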

How the data were processed

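The data are 3 control and 3 pre-AML platelet libraries. Per the labels the authors used STAR, DESeq2 and the build mm10, and they deposited FPKM values; the counting program and annotation are not given in the sources used here. The members and all gene lists were chosen with earlier results of these data known. Columns were mapped to samples by name.

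Gene lengths were the union of exons in GENCODE M21, found for 14911 of 14975 genes. With them, 85.1% of 72264 values above 0 were within 0.1 read of a whole number, and reads were recovered on that basis (all 6 libraries for 9 members; those of Lat are estimates). For a 2 kb gene, the floor of 3 reads is 0.0643 to 0.128 FPKM, depending on the library.

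The main test was limma-trend (limma 3.58.1, R 4.3.3) on log2(FPKM + 1) without covariates, for genes whose mean reached 1 FPKM, at a Benjamini-Hochberg adjusted p under 0.05. It was tested on simulated data. Ratios were compared by exact permutation tests (Python 3.11.15, scipy 1.17.1). Alternatives were a pseudocount of 0.1, no filter, the same FPKM sum, quantile normalization, the replicate block, array weights, removal of trends with GC content and length, limma-voom on recovered reads, and leaving out each library. The length of the principal transcript, fold changes relative to the median of all genes and ratios with GC content and length trends removed were added after seeing the data. Named genes are all members, the 3 most abundant and 2 smallest-p genes of each pathway list, the 2 most abundant of each marker list and 3 nearest profiles per receptor (1 is not reported here); Src, Blk, Lck, Dok3, Plcg1, Fcgr3, Ptprc and Olr1 were named after their values were seen. Promoters come from RefSeq (GRCm38.p6), where 9 members matched, and coding bases from GENCODE M21.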

Additional observations from a re-analysis of the deposited data

How the results depend on the processing

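Pre-AML 3 and its deposited library size set the limit on these values, with 3 libraries per group. No member passed the threshold in any of the 14 alternatives. The 1 gene called over the whole table went to 0 with no filter on low values, with the same FPKM sum, with trends with GC content and length removed and with limma-voom, and to 2 with array weights, while leaving out 1 library gave 0 to 2. Among the pathway partners, leaving out 1 library gave 0 to 1 called, the 1 being Tyrobp without pre-AML 3. This gene passed the filter through the pre-AML libraries alone, so the call is not used as support.

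Fcer1g turned above 0 with the same FPKM sum (0.069), array weights (0.051) and limma-voom (0.036), and was between -0.18 and 0.035 with 1 library left out. Clec1b turned to 0.0100 with trends with GC content and length removed. Lat was 0.050 with the same FPKM sum and 0.021 with limma-voom. Lcp2 was 0.073 with the same FPKM sum, 0.028 with array weights, 0.023 with trends removed and 0.048 with limma-voom, and -0.18 to 0.0062 with 1 library left out. Plcg2 was -0.45 to 0.041 with 1 library left out. The cause was not tested. The median of the inhibitory list was -0.022 on the deposited values, 0.14 with the same FPKM sum and 0.13 with limma-voom. This list holds Ptpn6 and Dok3, which passed the filter through the pre-AML libraries alone. Its medians are therefore not used as support for a difference. The median of the adaptors was 0.037 with no filter, -0.0011 with the same FPKM sum and -0.024 with limma-voom. That of the effectors was -0.071 on the deposited values. It was 0.042 with no filter, 0.050 with the same FPKM sum, 0.039 with trends removed and 0.045 with limma-voom.

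With trends with GC content and length removed, the log2 ratio difference turned to 0.10 for Lyn to Fyn and 0.11 for Btk to Plcg2. With 1 library left out, it was -0.17 to 0.15 for Lyn to Fyn, -0.49 to 0.38 for Btk to Plcg2 and -0.22 to 0.074 for Lat to Lcp2. With the principal transcript, 6 members changed their place in the order. The deviations of same-numbered libraries from their group means had correlations of -0.043, -0.12 and -0.17. With 3 libraries per group and pre-AML 3 far from the others, these cannot decide whether the numbers pair the samples. The fit with the replicate block called 1 gene and 0 members, with -0.43 and an adjusted p of 0.594 for Gp6 from limma-trend.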

Other observations

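The genes within 100 kb of the receptor genes were read as a further description of the loci. Clec1b lies in a cluster of C-type lectin genes on chromosome 6, and the neighbours Clec2m, Clec12a, Clec12b and Clec1a all had means under 1 FPKM in both groups, while Clec1b had 967 FPKM in control platelets. Clec7a, which encodes the hemITAM receptor dectin-1, had 0.984 FPKM in control and 0.689 in pre-AML platelets. Olr1, a lectin-like receptor for oxidized lipoprotein in the same cluster, had 72.4, 49.7 and 58.1 FPKM in control and 44.7, 47.3 and 24.2 in pre-AML libraries. All its pre-AML values were below the controls, with a log2 fold change of -0.66 and an adjusted p of 0.522 from limma-trend. Next to Gp6, the NK cell receptor gene Ncr1 was listed at 0 in all control libraries and had 0.732, 0.344 and 2.06 FPKM in pre-AML libraries. Pcp4l1, near Fcer1g, had 134 FPKM in control and 120.1 in pre-AML platelets (log2 fold change -0.16).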
